A study of Mus musculus with 12 samples.

Results

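The clustered histone genes of mouse embryonic fibroblasts (MEF cells) are described here, that is, every gene whose symbol starts with Hist1h, Hist2h, Hist3h or Hist4h in the deposited tables. The table of Control and 2MUT cells lists 70 of them among 43280 names, and the table of 2-HG(-) and 2-HG(+) cells lists 28 among 23930 names. All 28 are also in the first table, so the 70 are the members found among the 46763 names of either table. A member was tested where its mean over the 6 libraries of a table was at least 1 RPM (the reads of a gene in every 1000000 that were assigned to genes), which held for 21 members in the first table and 19 in the second, with 18 tested in both.

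MEF cells came from C57BL/6 embryos of embryonic day 13.5 and had become immortal by serial passage. Control cells carried an empty retroviral vector, and 2MUT cells stably expressed mutant human IDH2 (R172S) with a FLAG tag from the same vector after selection with puromycin. The 2-HG(+) cells were parental MEF cells given 300 μM of a membrane-permeant octyl ester of (R)-2-hydroxyglutarate for 24 h, and the 2-HG(-) cells were the matching culture, given DMSO according to the labels and described as non-treated in the study's text. Each group had 3 libraries, and since the sources say only that experiments were done in triplicate, the p-values measure the spread between these libraries, which may be technical.

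Core histones H2A, H2B, H3 and H4 form the protein spool of the nucleosome, and linker histone H1 binds the DNA between nucleosomes. Most genes of the clusters are replication-dependent: they are transcribed in S phase, when new DNA has to be packed, and their mRNAs end in a conserved stem-loop bound by SLBP (stem-loop binding protein) in place of a poly(A) tail. When DNA synthesis stops these mRNAs are degraded, whereas replacement histones outside the clusters are made throughout the cell cycle from ordinary polyadenylated mRNAs.

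The stem-loop is shown first because it is a sequence that most of these genes share beyond their names. In the GENCODE M21 transcripts (GRCm38), the letters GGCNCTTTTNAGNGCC on the sense strand were found in 42 of the 70 members and in 47 of all 55450 genes (0.085%). Members are given below with 5 transcript bases on either side. The capitals mark the 16 bases of the stem-loop and the coordinates are those of the capitals. All 9 matching H4 genes had the form GGCCCTTTTNAGGGCC, and all 33 matching genes of the other types had GGCTCTTTTNAGAGCC.
Hist1h1d, H1, chr13:23555787-23555802, plus strand: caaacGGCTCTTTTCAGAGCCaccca
Hist1h2ac, H2A, chr13:23683477-23683492, minus strand: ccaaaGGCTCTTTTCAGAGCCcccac
Hist1h2bb, H2B, chr13:23747203-23747218, plus strand: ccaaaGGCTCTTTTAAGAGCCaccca
Hist1h3d, H3, chr13:23576244-23576259, plus strand: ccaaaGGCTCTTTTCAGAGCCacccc
Hist1h4i, H4, chr13:22040966-22040981, minus strand: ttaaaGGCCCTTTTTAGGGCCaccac
Hist2h4, H4, chr3:96262939-96262954, minus strand: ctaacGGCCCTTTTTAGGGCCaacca
Hist4h4, H4, chr6:136803998-136804013, minus strand: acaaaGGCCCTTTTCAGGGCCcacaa

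Of the 21 members tested in 2MUT and Control cells, 14 held a match. Gene models limit this count, because 13 of the 25 protein-coding members with no match end at the stop codon, and the others include Hist1h1a, whose model runs 48 bases past it. Long models without a match also occur, among them those of the untested Hist1h2br, Hist1h2bq, Hist1h2bc and Hist1h4j, which run 1803, 1608, 742 and 430 bases past the stop codon, and of the tested Hist1h4a, with 154. Hist2h2be, an H2B gene on chromosome 3, has the longest of these: its model of 2620 bases (chr3:96221119-96223738, plus strand, a single exon) runs 2192 bases past the stop codon and holds no match. It returns below as the one, among the 18 members tested in both tables, whose fold changes had the opposite signs to the others. Its groups overlapped in 2MUT and Control. Hist1h1a, Hist1h1b, Hist1h2ak, Hist2h2ab and Hist1h4a also held no match, and their fold changes had the signs of the other members. Only the letters given above were searched, so a stem-loop with other letters would be missed.

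Members lie close together and resemble each other, which bears on what a read can tell. On chromosome 13, 55 members lie within 2219 kb (chr13:21715763-23934851), 10 lie within 50 kb on chromosome 3, 3 are on chromosome 11 and 1 is on chromosome 6. A single member, Hist1h2al, is on chromosome 13 outside the cluster. Of the 70, 65 have a single exon. All 13 H4 genes encode the same protein of 103 amino acids. Of the 12 H3 genes, 7 encode a protein of 136 amino acids that is identical between them, and 4 encode another. Of the H2A genes 9 share a protein, whereas each of the 6 H1 genes encodes its own.

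Reads of near-identical genes could be shared, lost or assigned to a relative, and how the counting treated them was not given in the sources used here. As a measure of this, each transcript was divided into windows of 50 bases. Among the 21 tested members the median share of windows found in no other gene was 75.2%, against 34.2% in the other 49. Only 2 tested members were under 50%, Hist1h2ak at 47.7% and Hist1h4n at 14.4%. Hist1h4n has a coding sequence identical to that of Hist1h4m, and its level of 25.3 to 27.1 RPM in 2MUT 1 and 2MUT 2 stood beside 0.155 and 0.146 RPM for Hist1h4m in the same libraries. In the second table Hist1h2ab, at 42.0%, was tested. H1 genes were the most distinct, with 100.0% for Hist1h1a and Hist1h1b, 97.7% for Hist1h1d, 91.5% for Hist1h1c and 68.0% for Hist1h1e. A kit that amplifies a short target in each gene adds a further limit, since the positions of the targets were not used here: RPM therefore cannot rank the mRNA levels of genes. Sums over members and a member's share of a sum are given below as amounts of reads, and each change is of a gene or a sum against itself.

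**Figure D1:**
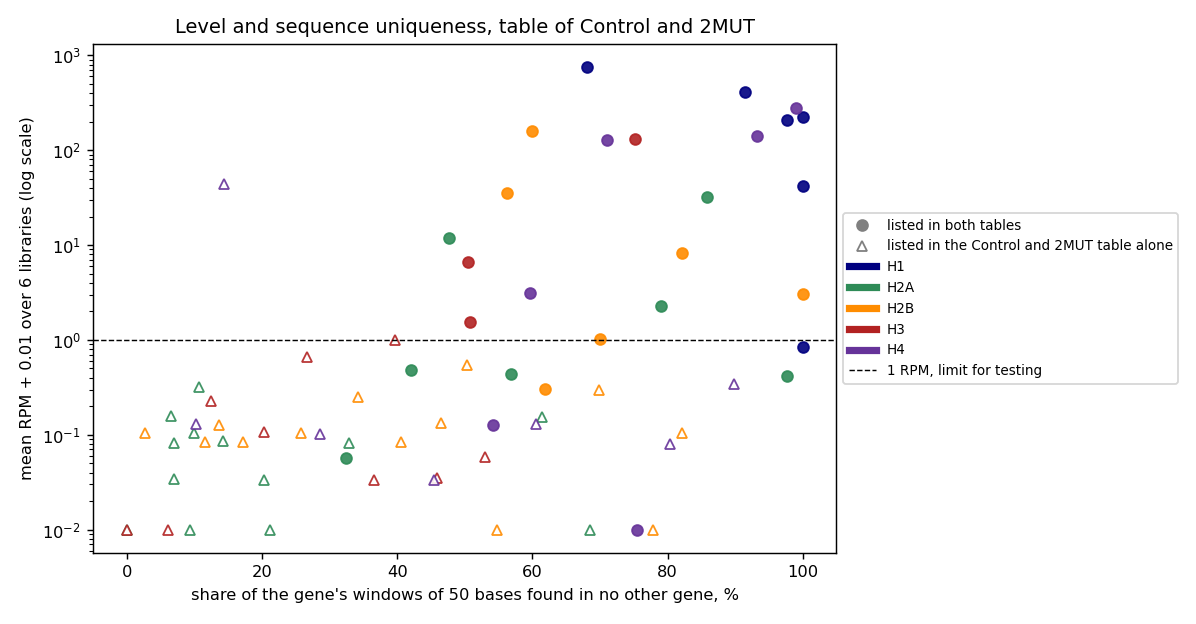
Mean RPM of the 70 members over the 6 Control and 2MUT libraries (vertical log scale, with 0.01 added so that 0 can be drawn) against the share of a gene's windows of 50 bases found in no other gene. Most members under 50% lie below the dashed line at 1 RPM, and the open triangle far above it on the left is Hist1h4n.

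The 49 untested members of the first table had mean levels from 0 to 0.989 RPM, and 9 of them had no read in any library. Such values do not show that a gene is silent, since genes that every proliferating cell uses were also listed at or near 0 there: Pcna at 0 RPM in all 6 libraries, and the replacement histone genes H3f3a and H2afz at most at 0.427 and 0.963 RPM. Of the 42 members listed in that table alone, only Hist1h4n reached 1 RPM. Closest to the limit were Hist3h2bb-ps at 1.01 RPM, which was tested, and Hist1h3b at 0.989 RPM, which was not. In the second table Hist1h4a was tested at 1.24 RPM and Hist1h4h was not at 0.764 RPM. A few members passed only through the group where they were high, with a mean under 1 RPM in the other group: Hist1h3f and Hist3h2bb-ps in the first table, and Hist1h2ab, Hist1h4a and Hist2h2be in the second.

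The libraries held 6472439 to 7313602 reads in the first table and 14959318 to 18363768 in the second, so that 3 reads were worth 0.41 to 0.464 RPM and 0.163 to 0.201 RPM. Fibroblast markers were present, 9 of 11 at 1 RPM or more in each table, with a summed level of 15000 to 17000 RPM in Control, 13400 to 13800 in 2MUT, 21600 to 23300 in 2-HG(-) and 15300 to 16300 in 2-HG(+). Epithelial and germ cell markers were all under 1 RPM. Single low markers of other types passed 1 RPM: Cd68 in both tables, Csf1r in the second, Pecam1 in the first and Des in both. Mouse Idh2, which cannot check the human transgene, stood at 70.9, 80.8 and 80.1 RPM in Control and 42.6, 51.1 and 55.2 RPM in 2MUT. Bulk RNA cannot tell fewer cells in S phase from less histone mRNA in each cell.

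The first comparison asks how the clustered histone genes differed between 2MUT and Control cells. Cells with added wild-type IDH2 were not among the 12 libraries, so the part of the mutation in a difference was not tested. They were lower in 2MUT: 17 of the 21 tested members fell, and none rose. The adjusted p-value (limma on log2(RPM + 1), Benjamini-Hochberg over all genes tested) was under 0.05 for 17.3% of all genes in the lower and 16.5% in the higher direction. At an unadjusted p under 0.05, 18 members were lower, against 22.2% of all genes, and 0 higher, against 21.9%. On recovered reads edgeR and DESeq2 also called 0 members higher, against 16.4% and 16.6% of all genes. Of the 19 members whose mean reached 1 RPM in both groups, a count added after the data were seen, 16 fell, against 17.4% of all such genes. The median log2 fold change was −1.47 over the tested members and 0.01 over the 11065 genes tested. In 18 of the 21 members every 2MUT library lay below every Control library, against 24.0% of all genes, and in 0 members every 2MUT library lay above, against 23.5% of all genes.

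Summed over all 70 members, the level was 3580, 4380 and 3790 RPM in the Control libraries and 1310, 1460 and 1280 RPM in the 2MUT libraries. That is 3920 ± 413 RPM against 1350 ± 94.1 RPM (SD, n = 3), 2.91-fold lower in 2MUT, with no overlap. A sum has the advantage that it does not depend on how reads were split between its own members. Reads that were lost or assigned to a gene outside the sum would still change it. Hist1h1e, for example, shares windows with the H2B gene Hist1h2be. The sum of H2B genes was 4.43-fold lower, that of H2A genes 3.34-fold, that of H1 genes 3.25-fold, that of H3 genes 3.03-fold and that of H4 genes 1.92-fold. These ratios are descriptions without a test. Several rest largely on a leading member: Hist1h3d made up 92.8% of the H3 sum, and without it the log2 ratio of H3 went from −1.60 to −1.30. Without Hist1h2bb that of H2B went from −2.15 to −1.62.

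The second comparison asks what the same genes did after 24 h of added 2-HG. They were higher: 17 of the 19 tested members rose in 2-HG(+), Hist2h2be fell, and Hist1h4a did not pass the test. Of all genes 16.1% were called higher and 16.7% lower. Of the 16 members whose mean reached 1 RPM in both groups, all 16 rose, against 16.2% of all such genes, and Hist2h2be is not among them. The median log2 fold change was 0.99 over the tested members and −0.02 over the 10384 genes tested. Every 2-HG(+) library lay above every 2-HG(-) library in 17 of the 19 members, against 22.2% of all genes, and below in 1, against 24.1% of all genes. Under a test without shared variance, 11 of the 19 were called higher, against 10.6% of all genes under that test.

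The sum over the 28 members was 2400, 1690 and 2180 RPM in 2-HG(-) and 3660, 4550 and 4330 RPM in 2-HG(+), or 2090 ± 359 RPM against 4180 ± 467 RPM (SD, n = 3), a ratio of 2.00. The lowest 2-HG(+) library was thus above the highest 2-HG(-) library. By type the ratio was 2.36 for H2B, 2.14 for H1, 1.97 for H3, 1.95 for H2A and 1.69 for H4. H4 had the smallest ratio in both comparisons, also with the leading member of each type left out (log2 ratio −1.13 in 2MUT and 0.60 with 2-HG), though no test was made of differences between types. The place of H2B rested on Hist1h2bb: without leading members its log2 ratio was −1.62 against −1.72 for H1 in 2MUT, and 1.08 against 1.24 for H1 with 2-HG. Without Hist1h3d, which made up 95.4% of the H3 sum, the log2 ratio of H3 went from 0.98 to 1.34.

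**Figure D2:**
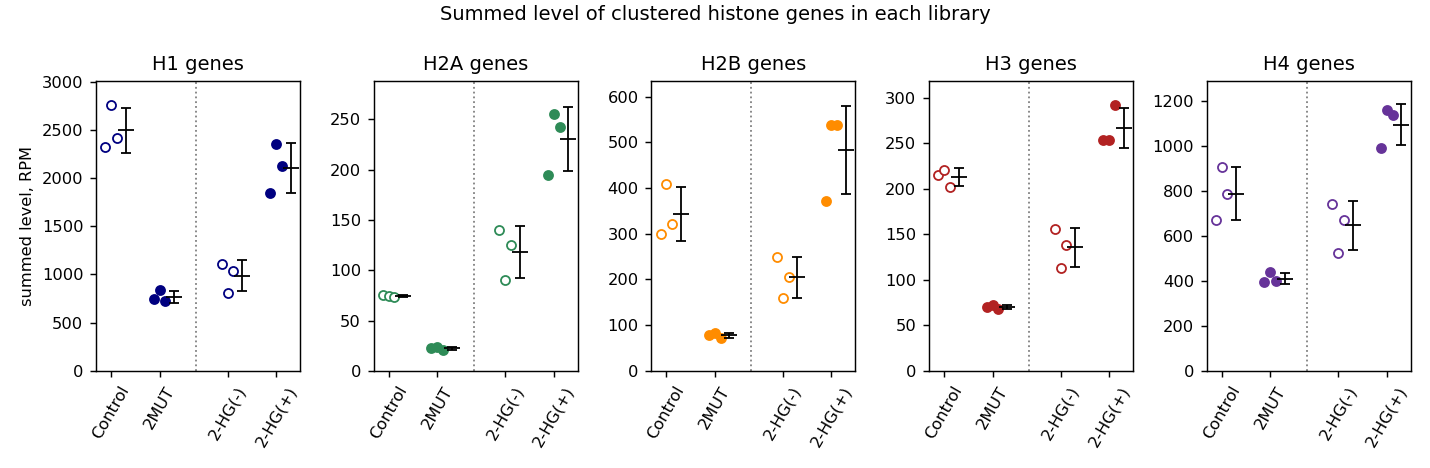
Summed RPM of the clustered genes of each histone type in each library (points; open for Control and 2-HG(-), filled for 2MUT and 2-HG(+)), with the mean and SD of 3 libraries in black. The 4 groups share no library, the dotted line separates the tables, whose levels are not comparable, and within each table the groups do not overlap for any type.

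The libraries of a group differed in a common way across members. The library 2-HG(-) 2 was the lowest of its group in 17 of 19 tested members, and 2-HG(+) 1 the lowest of its group in 14. Among Control libraries the second was the highest in 13 of 21 members, and 2MUT 3 was the lowest of its group in 13. Leaving out any of these left 15 to 17 members called lower in 2MUT and 16 or 17 called higher in 2-HG(+).

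**Figure D3:**
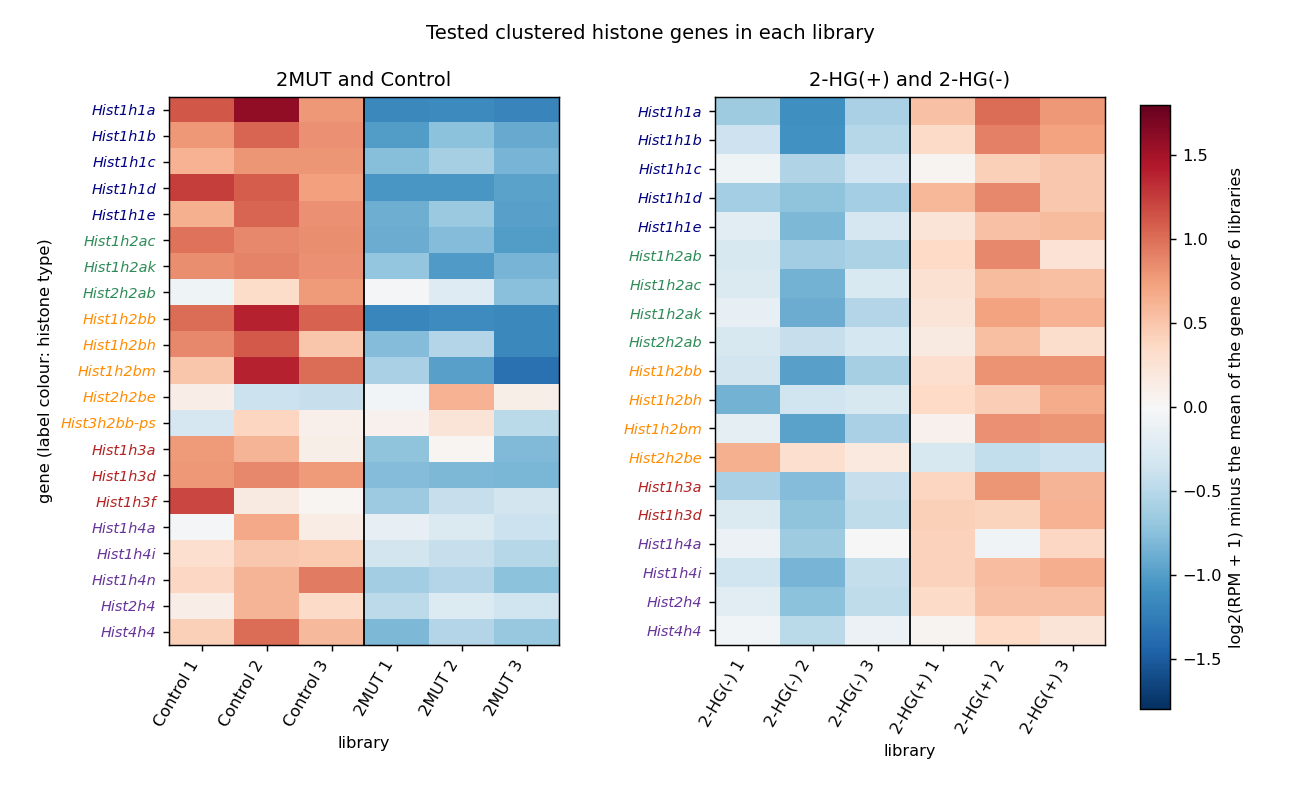
Each tested member (rows) in each library (columns), as log2(RPM + 1) minus the mean of that gene over the 6 libraries of its table; red is above and blue below the mean. Rows are nearly all red in Control and blue in 2MUT, and blue in 2-HG(-) and red in 2-HG(+). Hist2h2be is the row of reversed colours in the panel of 2-HG. Colours are mixed in rows whose groups overlap, which are Hist2h2be, Hist2h2ab and Hist3h2bb-ps in the panel of 2MUT and Hist1h4a in that of 2-HG.

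H1 genes encode the linker histones. All 5 tested ones fell in 2MUT (against 17.3% of all genes) and rose with 2-HG (against 16.1%). Hist1h1a (chr13:23763666-23764406, plus strand), which encodes an H1 subtype of 213 amino acids, stood at 66.1, 92.4 and 52.0 RPM in Control and at 12.8, 13.0 and 12.5 RPM in 2MUT. The 2MUT libraries lay close together and far below the lowest Control library. Its log2 fold change of −2.33 ± 0.19 (SE, adjusted p = 7.31e-06, limma) was the largest fall of any tested member. With 2-HG it went from 43.0, 30.8 and 44.6 RPM to 97.8, 137 and 117 RPM, a log2 fold change of 1.55 ± 0.17 (adjusted p = 0.000129), the largest rise.

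Hist1h1e, which took the most reads of any member in both tables, stood at 995, 1320 and 1130 RPM in Control and at 346, 399 and 324 RPM in 2MUT (log2 fold change −1.68 ± 0.12, adjusted p = 2.79e-06). In 2-HG(-) it stood at 477, 314 and 445 RPM and in 2-HG(+) at 651, 792 and 819 RPM (0.89 ± 0.16, adjusted p = 0.00266). Groups did not overlap in either table. Hist1h1d had log2 values further from 0: 385, 345 and 271 RPM in Control, 77.9, 77.9 and 82.6 RPM in 2MUT (−2.04 ± 0.13), and 287, 266 and 288 RPM in 2-HG(-) against 665, 802 and 615 RPM in 2-HG(+) (1.30 ± 0.11, adjusted p = 4.02e-05).

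Hist1h1c had the smallest H1 change in both comparisons. It stood at 553, 621 and 621 RPM in Control and 211, 238 and 200 RPM in 2MUT (−1.47 ± 0.10, adjusted p = 1.98e-06). In 2-HG(-) it stood at 109, 78.4 and 90.1 RPM and in 2-HG(+) at 119, 154 and 161 RPM (0.64 ± 0.15, adjusted p = 0.0103), so that 2-HG(+) 1 was only just above the highest 2-HG(-) library. Hist1h1b stood between, at −1.76 ± 0.11 in 2MUT and 1.31 ± 0.20 with 2-HG. The testis H1 gene Hist1h1t was listed under 1 RPM in both tables, with 35 reads over the 6 libraries of the first and 3 over those of the second, and was not tested.

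H2A and H2B form the dimers that complete the nucleosome. Of 3 tested H2A members 2 fell in 2MUT (against 17.3% of all genes). All 3 whose mean reached 1 RPM in both groups rose with 2-HG (against 16.2% of all such genes). Hist1h2ac stood at 53.0, 49.1 and 47.9 RPM in Control and 13.8, 14.9 and 12.7 RPM in 2MUT (−1.79 ± 0.14, adjusted p = 4.65e-06). In 2-HG(-) it stood at 75.4, 49.9 and 74.4 RPM and in 2-HG(+) at 110, 135 and 132 RPM (0.93 ± 0.16, adjusted p = 0.00217). Hist1h2ak fell by 1.70 on the log2 scale in 2MUT (SE 0.17) and rose by 1.06 with 2-HG (SE 0.19), with the limit that over 50% of its windows occur in other genes. Hist1h2ab, tested with 2-HG alone, went from 1.03, 0.602 and 0.660 RPM to 2.18, 3.49 and 1.96 RPM (0.99 ± 0.19, adjusted p = 0.00403), but it passed the limit of 1 RPM only through 2-HG(+).

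Hist2h2ab, in the chromosome 3 cluster, was less clear in 2MUT. Its levels of 1.92, 2.85 and 4.24 RPM in Control and 2.01, 1.61 and 0.826 RPM in 2MUT overlapped, and the log2 fold change of −0.68 ± 0.29 had an adjusted p of 0.0939. With 2-HG it rose from 7.51, 6.82 and 7.38 RPM to 10.7, 14.2 and 12.0 RPM (0.68 ± 0.14, adjusted p = 0.00522).

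Of 5 tested H2B members 3 fell in 2MUT (against 17.3% of all genes). Hist1h2bb, the leading member of its type, went from 241, 314 and 251 RPM in Control to 52.5, 54.0 and 52.8 RPM in 2MUT (−2.30 ± 0.12, adjusted p = 2.92e-07). Of 4 tested with 2-HG, 3 rose (against 16.1% of all genes). Hist1h2bb was again foremost, with 201, 129 and 168 RPM in 2-HG(-) and 312, 444 and 444 RPM in 2-HG(+) (1.27 ± 0.18, adjusted p = 0.0007). Hist1h2bm went from 39.5, 73.5 and 56.1 RPM to 18.1, 13.5 and 10.3 RPM in 2MUT (−1.93 ± 0.24) and from 43.1, 24.3 and 31.9 RPM to 51.0, 85.8 and 83.9 RPM with 2-HG (1.13 ± 0.24). Its libraries were more scattered than those of Hist1h2bb, without overlap between groups. Hist1h2bh fell by 1.65 on the log2 scale (SE 0.23) in 2MUT and rose by 0.99 (SE 0.18) with 2-HG.

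Hist2h2be went the other way. It stood at 2.78, 2.00 and 1.74 RPM in 2-HG(-) and at 0.992, 0.782 and 0.849 RPM in 2-HG(+), with no overlap, and fell by 0.75 on the log2 scale (SE 0.17, adjusted p = 0.00747). It passed the limit of 1 RPM in this table only through 2-HG(-), so this call is no independent support for its direction. In Control it stood at 3.25, 1.99 and 1.91 RPM and in 2MUT at 2.78, 4.98 and 3.17 RPM, which overlap (0.45 ± 0.26, adjusted p = 0.21). These levels are low: 151 reads over the 6 libraries of the second table and 125 over those of the first. No window of its transcript occurs in another gene. The pseudogene Hist3h2bb-ps, at 42 reads over 6 libraries, had a log2 fold change of −0.11 ± 0.30 in 2MUT, with its sign depending on the library left out.

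H3 carries many of the lysines that are methylated in chromatin, and Hist1h3d and Hist1h3a, the tested members whose mean reached 1 RPM in both groups, fell in 2MUT. Hist1h3d stood at 195, 206 and 193 RPM in Control and at 65.0, 64.3 and 63.3 RPM in 2MUT (−1.61 ± 0.10, adjusted p = 1.03e-06). In 2-HG(-) it stood at 151, 109 and 132 RPM and in 2-HG(+) at 243, 239 and 279 RPM (0.96 ± 0.13, adjusted p = 0.000498). Hist1h3a went from 10.9, 9.69 and 6.56 RPM to 3.25, 6.15 and 3.03 RPM in 2MUT (−0.99 ± 0.27, adjusted p = 0.0144), with 2MUT 2 just under the lowest Control library. Without 2MUT 1, 2MUT 3 or Control 1 its adjusted p was 0.0545, 0.0598 or 0.0612. With 2-HG it rose from 5.28, 4.48 and 6.06 RPM to 11.4, 15.3 and 13.4 RPM (1.20 ± 0.16, adjusted p = 0.000441).

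Hist1h3f passed the limit of 1 RPM only through Control and rested on a high Control library: 4.29, 1.57 and 1.37 RPM in Control against 0.464, 0.732 and 0.826 RPM in 2MUT (−0.93 ± 0.32, adjusted p = 0.0455). Without Control 1 its log2 fold change was −0.56 and its adjusted p 0.169. The call was lost under 7 of the alternatives, also without 2MUT 1, 2MUT 2 or 2MUT 3 (adjusted p 0.125, 0.0872 or 0.0797). In the second table it had 3 reads over 6 libraries and was not tested.

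H4 is the histone whose genes all encode the same protein here. Of 5 tested members 4 fell in 2MUT (against 17.3% of all genes), with log2 fold changes between −1.34 and −0.72. Hist2h4, in the chromosome 3 cluster, stood at 294, 415 and 345 RPM in Control and at 196, 228 and 211 RPM in 2MUT (−0.72 ± 0.13, adjusted p = 0.00127). With 2-HG it rose from 353, 242 and 295 RPM to 514, 587 and 587 RPM (0.94 ± 0.14, adjusted p = 0.000826). Hist1h4i likewise went from 152, 174 and 172 RPM to 98.0, 92.7 and 86.1 RPM in 2MUT (−0.84 ± 0.10) and from 93.4, 67.1 and 89.5 RPM to 160, 178 and 189 RPM with 2-HG (1.08 ± 0.14, adjusted p = 0.000341). In size the log2 value with 2-HG was above that in 2MUT for both genes and below it for all 5 H1 genes, and whether these sizes differ was not tested.

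Hist4h4, alone on chromosome 6, had its larger value in 2MUT. It went from 170, 253 and 190 RPM in Control to 71.5, 87.0 and 78.4 RPM in 2MUT (−1.34 ± 0.14, adjusted p = 5.68e-05). In 2-HG(-) it stood at 296, 217 and 284 RPM and in 2-HG(+) at 315, 391 and 360 RPM (0.42 ± 0.14, adjusted p = 0.0376), and this call was lost under 8 of the alternatives. Without 2-HG(-) 2, its lowest library, the rise was 0.29 with an adjusted p of 0.0943. Without 2-HG(-) 3, 2-HG(+) 2 or 2-HG(+) 3 it was 0.48, 0.35 or 0.41, with an adjusted p of 0.0637, 0.126 or 0.0833. Hist1h4n fell in 2MUT from 51.5, 61.1 and 76.6 RPM to 25.3, 27.1 and 23.3 RPM (−1.27 ± 0.15), with the limit on its sequence given above. Hist1h4a, at 2.96, 5.41 and 3.42 RPM in Control and 2.63, 2.34 and 2.06 RPM in 2MUT, had an adjusted p of 0.116. In the second table it stood at 1.03, 0.401 and 1.20 RPM in 2-HG(-) and 1.92, 1.08 and 1.83 RPM in 2-HG(+), which overlap (adjusted p = 0.113).

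**Figure D4:**
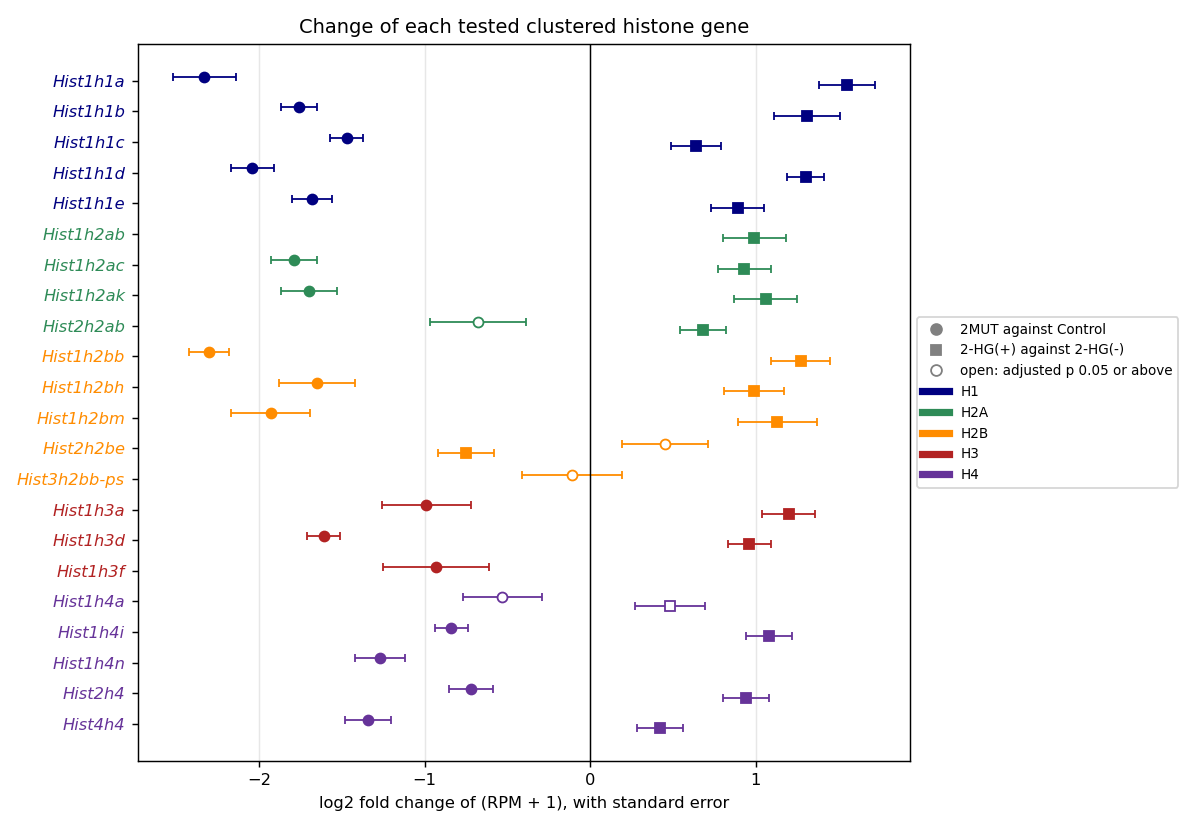
Log2 fold change of RPM + 1 with its standard error for each tested member, circles for 2MUT against Control and squares for 2-HG(+) against 2-HG(-), coloured by histone type and open where the adjusted p was 0.05 or above. Circles lie left of 0 and squares right of 0, except for Hist2h2be. Farthest from 0 is Hist1h1a at −2.33 and 1.55, and nearest are the circle of Hist3h2bb-ps at −0.11 and the square of Hist4h4 at 0.42.

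The third question is whether the 2 changes differ. No library is shared between the comparisons. Of the 18 members tested in both, 15 fell in 2MUT and rose with 2-HG, a pattern found in 5.18% of the 9610 genes tested in both. In the same direction 0 members were called, against 4.57% of these genes (0 members also at an unadjusted p under 0.05, by edgeR and by DESeq2). All 18 had opposite signs, as had 55.8% of these genes. The difference was tested over the 12 libraries as the change in 2MUT minus the change with 2-HG, again by limma with adjustment over all genes. It passed the threshold downward in 17 members, against 19.5% of all genes, and upward in 1, Hist2h2be, against 19.9% of all genes. Hist2h2be and Hist1h4a had a mean under 1 RPM in a group of the second table, and all 16 members without such a group passed downward, against 19.6% of all such genes.

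The difference was largest for Hist1h1a at −3.88 ± 0.28 (adjusted p = 2.08e-07), Hist1h2bb at −3.57 ± 0.24 and Hist1h1d at −3.34 ± 0.18. It was smallest for Hist1h4a at −1.02 ± 0.33 (adjusted p = 0.0245), a member called in neither comparison alone, whose call was lost without Control 2 (−0.81), 2MUT 3 (−0.95), 2-HG(-) 2 (−0.82), 2-HG(+) 1 (−0.93) or 2-HG(+) 3 (−0.95). For Hist2h2be it was 1.20 ± 0.31 (adjusted p = 0.00728).

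Promoters were searched for letters known from histone genes. RefSeq promoters (GRCm38.p6, 250 bases before to 50 after the start) were matched for 61 members, 17 of them among the 22 tested in either table. Both strands were searched for 4 motifs, of which none contains another. The CCAAT box was found in 14 of 17 tested members and in 38 of the 44 others, against 37.41% of all promoters of this length. The letters TATAAA, which the TATA box holds, were found at any position of the window in 13 of 17, against 13.62%. The octamer of H2B promoters, searched as ATTTGCAT, was found in 4 of 17, against 1.74%. The box known from H1 promoters, searched as AAACACA, was found in 6 of 17, against 7.18%. The CCAAT box was in all 5 H1, all 4 H2A, all 3 H2B and the single H3 promoter, and in 1 of 4 H4 promoters. Among these 17 the octamer was in 2 H2A and 2 H2B promoters and in none of the other types, and the H1 box in 4 of 5 H1 promoters, 1 H2A and 1 H2B promoter. A match describes letters and not a bound site, and the window of 300 bases sets what could be found. The 150 bases before the start are given for a member of each of 4 types, on the strand of the gene, with the motifs in capitals. In Hist1h4i the capitals lie at the far end of the stretch from the start, away from where a TATA box would lie. In Hist1h2bb the letters TATAAA lie almost at the start, nearer to it than a TATA box would.
Hist1h1a, chr13:23763518-23763667, plus strand: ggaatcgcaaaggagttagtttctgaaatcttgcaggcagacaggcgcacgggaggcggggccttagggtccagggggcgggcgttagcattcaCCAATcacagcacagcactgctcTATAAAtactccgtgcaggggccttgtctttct
Hist1h2bb, chr13:23746584-23746733, plus strand: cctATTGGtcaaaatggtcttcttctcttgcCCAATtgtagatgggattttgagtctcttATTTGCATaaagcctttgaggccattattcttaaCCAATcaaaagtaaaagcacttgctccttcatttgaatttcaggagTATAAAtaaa
Hist1h3d, chr13:23575613-23575762, plus strand: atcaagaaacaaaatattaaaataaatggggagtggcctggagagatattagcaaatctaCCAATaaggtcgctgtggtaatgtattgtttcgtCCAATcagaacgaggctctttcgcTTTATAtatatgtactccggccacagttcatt
Hist1h4i, chr13:22041363-22041512, minus strand: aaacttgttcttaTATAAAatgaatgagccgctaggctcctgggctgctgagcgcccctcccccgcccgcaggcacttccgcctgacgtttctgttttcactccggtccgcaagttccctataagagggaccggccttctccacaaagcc

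Genes that supply the rest of histone metabolism were counted from 4 lists. The first holds 15 histone genes outside the clusters, mostly replacement variants. Over all genes 17.3% fell and 16.5% rose in 2MUT, and 16.1% rose and 16.7% fell with 2-HG. Of 6 genes of this list tested in 2MUT, 4 fell (66.7%) and 0 rose (median log2 fold change −0.49), and of 7 tested with 2-HG, 2 rose (28.6%) and 0 fell (median −0.03). For each 0 given for these lists in 2MUT or with 2-HG by limma, edgeR and DESeq2 also called 0, and at an unadjusted p under 0.05 the count was 0 as well, except for 2 genes lower with 2-HG in this list. Cenpa, the centromeric H3 variant, went from 37.7, 49.6 and 51.7 RPM to 11.3, 16.0 and 18.2 RPM in 2MUT (−1.56 ± 0.19) and rose with 2-HG by 0.49 (SE 0.11). H1f0, the linker histone of non-dividing cells, fell by 1.14 in 2MUT (SE 0.11, adjusted p = 3.33e-05). With 2-HG its log2 fold change was −0.23 (adjusted p = 0.0906). H2afx, whose product is phosphorylated at DNA breaks, fell by 0.56 in 2MUT and rose by 0.53 with 2-HG.

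The second list holds 25 factors that transcribe histone genes or form the 3′ end of their mRNAs. Of 22 tested in 2MUT, 3 fell (13.6%, against 17.3% of all genes) and 4 rose (18.2%, against 16.5%), shares near those of all genes, with a median of −0.08. Of 22 tested with 2-HG, 5 rose (22.7%, against 16.1%) and 0 fell, with a median of 0.09. Slbp, which encodes the stem-loop binding protein, went from 106, 104 and 97.6 RPM in Control to 65.2, 50.2 and 55.0 RPM in 2MUT (−0.85 ± 0.12, adjusted p = 0.000351). In the second table Slbp had 0.10 ± 0.10 (adjusted p = 0.494). Lsm11, a subunit of the U7 particle that cuts histone pre-mRNA, fell by 0.89 in 2MUT (SE 0.24) and rose by 0.86 with 2-HG (SE 0.17). Sympk, a scaffold of the cleavage complex, fell by 0.61 in 2MUT. Cap-binding Ncbp2 rose by 0.91 in 2MUT, followed by Lsm1 at 0.55 and Srrt at 0.45. With 2-HG, Cstf2 rose by 0.65 and cap-binding Ncbp1 by 0.59. Npat, the activator of histone gene transcription in S phase, was chosen after its values were seen and had −0.06 ± 0.16 in 2MUT and −0.08 ± 0.18 with 2-HG.

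The third list holds 26 histone chaperones, which carry histones to DNA. Of 22 tested in 2MUT, 10 fell (45.5%, against 17.3% of all genes) and 2 rose (9.09%, against 16.5%), with a median of −0.35. Of 23 tested with 2-HG, 14 rose (60.9%, against 16.1%) and 2 fell (8.70%, against 16.7%), with a median of 0.39. Chaf1b, a subunit of the assembly factor that works at replication forks, went from 48.7, 58.8 and 53.5 RPM in Control to 18.8, 13.3 and 22.2 RPM in 2MUT (−1.54 ± 0.18). With 2-HG it went from 18.9, 21.4 and 21.4 RPM to 57.6, 51.8 and 50.1 RPM (1.33 ± 0.11, adjusted p = 3.38e-05). Hat1, which acetylates new H4, fell by 1.06 and rose by 0.80, and Chaf1a fell by 0.95 in 2MUT. Asf1b, a chaperone of new H3 and H4, rose by 1.25 with 2-HG. Nap1l4 and Cdan1 rose in 2MUT by 0.68 and 0.44. With 2-HG, Ubn1 and Atrx, which serve the replication-independent H3 variant, fell by 0.58 and 0.33.

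The last list holds 46 genes of DNA replication and S phase. Of 41 tested in 2MUT, 32 fell (78.0%, against 17.3% of all genes) and 1 rose (2.44%, against 16.5%), with a median of −0.93. Of 43 tested with 2-HG, 40 rose (93.0%, against 16.1%) and 0 fell, with a median of 0.75. Cyclin gene Ccna2 went from 202, 231 and 148 RPM to 36.6, 41.6 and 29.9 RPM in 2MUT (−2.38 ± 0.17), and the licensing factor Cdt1 and the methylation reader Uhrf1 fell by 2.28 and 2.11. Gins4 was the member that rose, by 0.46 (adjusted p = 0.0491). With 2-HG, Ccne2 rose by 1.51, Rrm2, a subunit of ribonucleotide reductase, by 1.34, and the helicase subunit Mcm3 by 1.22. In the test of the difference, made by limma alone, 37 of 40 members of this list (92.5%, against 19.5% of all genes) had a lower change in 2MUT than with 2-HG and 0 a higher one (0 also at an unadjusted p under 0.05). The clustered histone genes thus moved in the direction of this list in both comparisons, and the part of cell cycle position in their change was not tested.

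**Figure D5:**
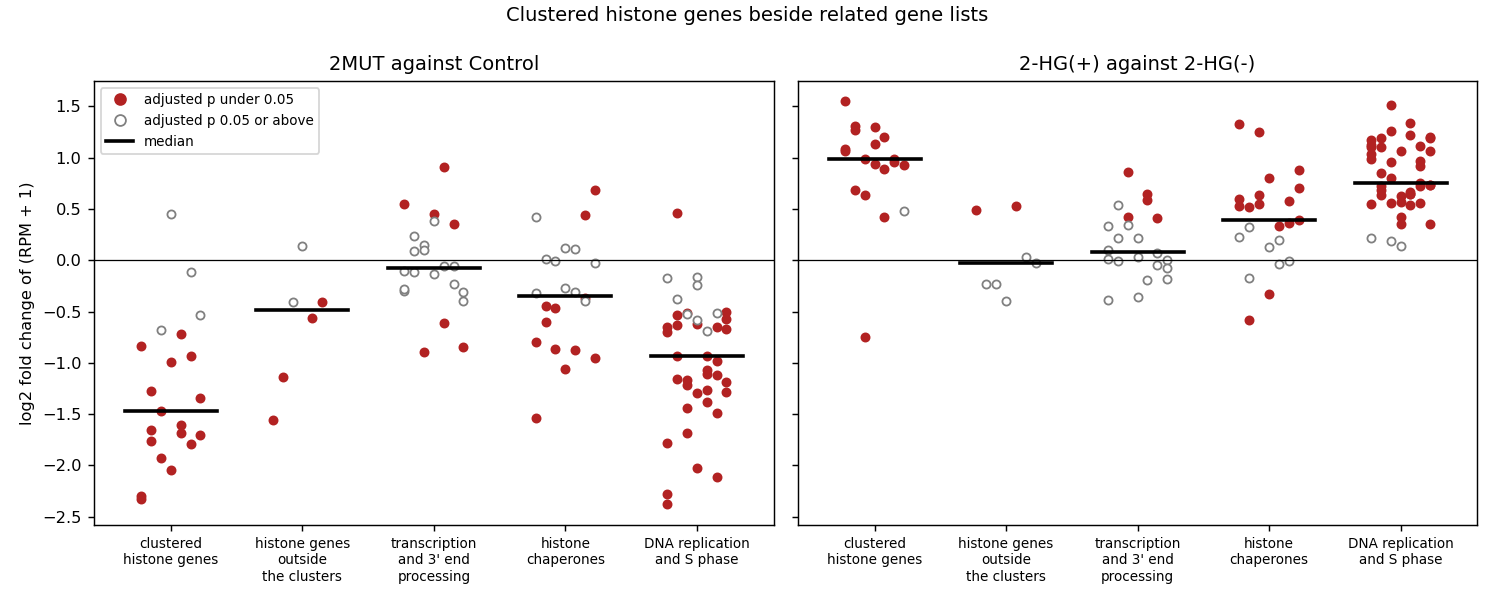
Log2 fold change of RPM + 1 of every tested gene of the clustered histone genes and the 4 other lists, filled where the adjusted p was under 0.05, with the median of each list as a bar. The bars of the clustered histone genes (−1.47 and 0.99) and of the DNA replication and S phase list (−0.93 and 0.75) lie on the same side of 0 in each panel, and that of the transcription and 3′ end processing factors lies near 0 (−0.08 and 0.09).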

How the data were processed

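RNA of 12 libraries was prepared with an Ion AmpliSeq Transcriptome Mouse kit, which amplifies a short target in each gene, and sequenced on an Ion Proton. The authors aligned reads with TMAP to the kit's transcript reference, had the AmpliSeqRNA plug-in count them, and the deposited values are RPM, 1 table for each experiment. Dividing by what 1 read is worth gave whole numbers for 100% of values (tolerance 0.0006 RPM), so whole reads were recovered. Replicates differed by more than sampling noise (chi-square per degree of freedom 5.57 to 31.45).

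Tests used limma 3.58.1 with a trend in R 4.3.3 on log2(RPM + 1), over the 6 libraries of a comparison, for genes averaging 1 RPM or more, with Benjamini-Hochberg adjustment over all of them, threshold 0.05. The difference between comparisons used all 12 libraries. Fold changes on this scale understate those of low genes. edgeR 4.0.16 and DESeq2 1.42.0 on recovered reads, other pseudocounts, filters and scalings, and leaving out each library were alternatives. On simulated data the fits were checked against known changes. The members and the lists were chosen with earlier results of these data known.

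Named in each table were the 3 members of each type with the highest mean RPM, the 4 largest called rises and falls of a comparison, members called in the test of the difference or in both comparisons, up to 3 called genes of the other lists in each direction with a mean of at least 10 RPM, and Idh2. Other genes were chosen after their values were seen. Annotation and transcripts were GENCODE M21 (GRCm38), and promoters RefSeq GRCm38.p6. The limits given as 3 reads cover counting error only, and SDs and SEs measure the spread between libraries.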

Additional observations from a re-analysis of the deposited data

Results flagged for a closer look

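The change of all 18 members tested in both comparisons differed between them, by the limma contrast over 12 libraries with adjustment over 9610 genes. It passed downward in 17, against 19.5% of all genes, and upward in 1, against 19.9%. Hist2h2be and Hist1h4a had a mean under 1 RPM in a group of the second table. The call of Hist1h4a was also lost in 5 fits that left out a library. All 16 members without such a group passed downward, against 19.6% of all such genes. On the log2 scale the change in 2MUT minus the change with 2-HG was −3.88 for Hist1h1a, −3.08 for Hist1h1b, −2.11 for Hist1h1c, −3.34 for Hist1h1d and −2.56 for Hist1h1e. Among H2A genes it was −2.72 for Hist1h2ac, −2.76 for Hist1h2ak and −1.36 for Hist2h2ab. Among H2B genes it was −3.57 for Hist1h2bb, −2.63 for Hist1h2bh, −3.05 for Hist1h2bm and 1.20 for Hist2h2be, which is of the other sign. For H3 it was −2.19 for Hist1h3a and −2.57 for Hist1h3d, and for H4 −1.02 for Hist1h4a, −1.91 for Hist1h4i, −1.65 for Hist2h4 and −1.77 for Hist4h4. Groups of 3 libraries are too small for a search for single outlying libraries.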

How the results depend on the processing

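Of the members called in 2MUT, 14 of 17 were called under every alternative that tested them, of those called with 2-HG 12 of 18, and of the differences 17 of 18. With no filter 1 member was called higher in 2MUT (Hist1h2bg, 22 reads over 6 libraries). With 2-HG, 11 were called higher under an unmoderated test, and 0 lower with a filter at 10 RPM, which removes Hist2h2be, or among members whose mean reached 1 RPM in every group, a count added after the data were seen that also leaves it out. Without the member with the highest mean RPM, the log2 ratio of the sums in 2MUT was −1.52 for H2A, −1.62 for H2B, −1.30 for H3 and −1.13 for H4, and that of H3 with 2-HG 1.34. Hist3h2bb-ps changed sign to 0.10 without 2MUT 3 and 0.05 without Control 2, in a range of −0.29 to 0.10. Leaving out each library gave 15 to 17 members lower in 2MUT, 16 to 17 higher and 1 lower with 2-HG, and 17 to 18 differences. Replicate numbers did not pair the libraries (correlation of same-numbered libraries 0.029 to 0.071 in the first table and −0.457 to 0.057 in the second), and with the replicate number as a block 16 were lower in 2MUT, 16 higher with 2-HG and 18 different, Hist1h3f and Hist4h4 losing their calls (adjusted p 0.0627 and 0.086). Hist2h4 in 2MUT (adjusted p 0.0505) and, with 2-HG, Hist1h1c, Hist1h1e, Hist1h2ac, Hist1h2ak and Hist1h2bm (0.0537 to 0.0948) lost theirs under the unmoderated test alone. The causes were not tested. Depth limits members under about 0.2 RPM in the second table and 0.4 RPM in the first, where 3 reads were not reached.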
